A study of Mus musculus with 6 samples.

Results

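The corticotropin-releasing hormone (CRH) family comprises the binding protein Crhbp, the ligands Crh, Ucn, Ucn2 and Ucn3, the receptors Crhr1 and Crhr2, and Pomc, the prohormone gene that CRH turns on in the pituitary. These 8 genes were measured in stria vascularis, the tissue of the lateral wall of the cochlea from which potassium enters the endolymph. All probe sets that the platform annotation assigns to them were taken, 11 of the 45037 probe sets on the arrays that were no Affymetrix controls. The family was selected on a measured value, the rise of Crhbp in Slc26a4-/- stria vascularis, so the values of Crhbp are given as a description with no test. The other 7 genes belong to the family by name, whatever their values, and were tested.

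Stria vascularis came from adult 129S6 mice of 2 genotypes, with 3 Affymetrix mouse arrays for Slc26a4+/+ mice and 3 for Slc26a4-/- mice. Slc26a4 encodes pendrin, an anion exchanger of spindle cells, and loss of its function causes the deafness of Pendred syndrome. No mouse received a treatment. According to the methods each array carried RNA pooled from more than 1 animal and amplified in more than 1 round, and the vessels were not perfused, so that p-values measure the spread between these pools.

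Crhbp is a secreted glycoprotein that holds CRH and urocortin, the product of Ucn, and keeps them from their receptors. Crhr1 and Crhr2 are class B1 receptors that act mainly through Gs, adenylyl cyclase and cyclic AMP. Crhr1 binds CRH and urocortin, while Crhr2 binds the 3 urocortins and has low affinity for CRH. In the pituitary, Crhr1 signalling releases ACTH, which is cut from the Pomc product and drives glucocorticoid synthesis in the adrenal cortex. Members of the family are also made outside this axis, the mouse inner ear included.

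The identity of the samples was checked first. Slc26a4 itself was measured at 1353.8, 1262.1 and 793.0 on Slc26a4+/+ replicates 1 to 3 and at 520.2, 716.8 and 618.5 on Slc26a4-/- replicates 1 to 3, without overlap (adjusted p = 0.119, limma with Benjamini-Hochberg adjustment). Where its probes lie relative to the deleted part was not found in the labels or the methods, and the gene therefore does not check the labels. Of the marker genes of strial marginal, intermediate and basal cells, 1 each is given here, with mean signals of 4375 and 3067 for Kcnq1, 5966 and 8403 for Tyr, and 6117 and 6900 for Cldn11 in Slc26a4+/+ and Slc26a4-/-, respectively. The intermediate cell markers Tyrp1 and Pmel, named after their values were seen, were dim in Slc26a4+/+, with mean signals of 46.2 and 212.1 against 1486 and 647.9, and passed the background there on 0 and 1 of 3 arrays. Other intermediate cell markers, Dct, Kcnj10, Kcnj13, Mlana and Sox10, passed it on all 3 arrays of each genotype. Y-linked Eif2s3y was at 639.9 to 1540.8 on Slc26a4+/+ arrays and at 3.1 to 3.6 on Slc26a4-/- arrays, and Xist at 770.6 to 3358.3 against 5529.6 to 5862.7, so that sex and genotype cannot be told apart in any difference given here. The Gapdh control probes at the 3' end over those at the 5' end, a ratio that rises as RNA shortens, gave 2.25, 7.19 and 10.5 on Slc26a4+/+ replicates 1 to 3 and 3.34 to 3.80 on the Slc26a4-/- arrays. For the background of each array, 44 probe sets of olfactory receptors were used, and their 95th percentile ranged from 187 to 319 and was highest on Slc26a4+/+ replicate 3.

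Crhbp is the gene with the large difference, and its promoter is shown because it is the only family member whose signal rose from near the background to among the bright probe sets. The gene lies on the minus strand of chromosome 13, and the window runs from 250 bases before to 50 bases after the annotated start (GRCm38.p6, chr13:95444782-95445081, sequence from RefSeq). It is written from 5' to 3' along the gene, with capitals marking CGTCA, which begins 64 bases before the start and is the core of the cyclic AMP response element, and TATAAA, which begins at base 31 after it.
Crhbp promoter: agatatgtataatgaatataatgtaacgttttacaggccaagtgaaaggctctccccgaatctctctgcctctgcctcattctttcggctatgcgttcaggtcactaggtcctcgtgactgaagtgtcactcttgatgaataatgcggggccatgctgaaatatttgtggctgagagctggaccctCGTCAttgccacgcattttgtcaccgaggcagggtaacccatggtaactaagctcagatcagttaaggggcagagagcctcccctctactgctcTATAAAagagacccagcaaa
On both strands, CGTCA was found in 20.8% and TATAAA in 13.6% of 32851 promoter windows of the same length. The full element TGACGTCA (1.79% of windows), the AP-1 site TGANTCA (7.81%), the nuclear receptor motif AAGGTCA (4.72%) and the glucocorticoid receptor motif AGAACA (19.0%) were searched too, and these letters are not in the Crhbp window. Windows were given for 6 of the 8 genes, and of these Ucn held TGACGTCA, which contains CGTCA, and AGAACA. Pomc held TATAAA and AAGGTCA, and Crhr2 held TATAAA. A match is a description of these letters and not a measured site.

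Crhbp was near the background in Slc26a4+/+ stria vascularis and bright in Slc26a4-/- stria vascularis. Its probe set, 1436127_at, gave signals of 317.6, 222.7 and 263.8 on Slc26a4+/+ replicates 1 to 3, and of 4063, 4685 and 3939.9 on Slc26a4-/- replicates 1 to 3. Every Slc26a4-/- array was far above every Slc26a4+/+ array, and the lowest Slc26a4-/- signal was 12.4 times the highest Slc26a4+/+ signal. The mean signals were 268 ± 47.6 and 4229 ± 399 (SD, n = 3 each), a log2 fold change of 3.99 with a standard error of 0.17. This is 15.9-fold on the scale of mean log2 signals, set against a Slc26a4+/+ group that passed the background on 1 of its 3 arrays.

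Within each genotype the Crhbp signal varied little, with a coefficient of variation of 17.8% over the Slc26a4+/+ arrays and 9.44% over the Slc26a4-/- arrays. The Slc26a4+/+ signal passed the background of its own array on replicate 1 and not on replicates 2 and 3. The Slc26a4-/- signal passed it on all 3 arrays. Ranked within its own array, Crhbp stood at percentiles 59.3 to 67.1 in Slc26a4+/+ and 96.4 to 97.1 in Slc26a4-/-. Its fold change ranked 21 among all 45037 probe sets, counted from the largest rise. Of the 1484 probe sets with a mean Slc26a4-/- signal at least as high, 6 had a fold change at least as large, and these were Crhbp, Lyz2, Cpe, Xist and 2 probe sets of Lyz1.

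**Figure D1:**
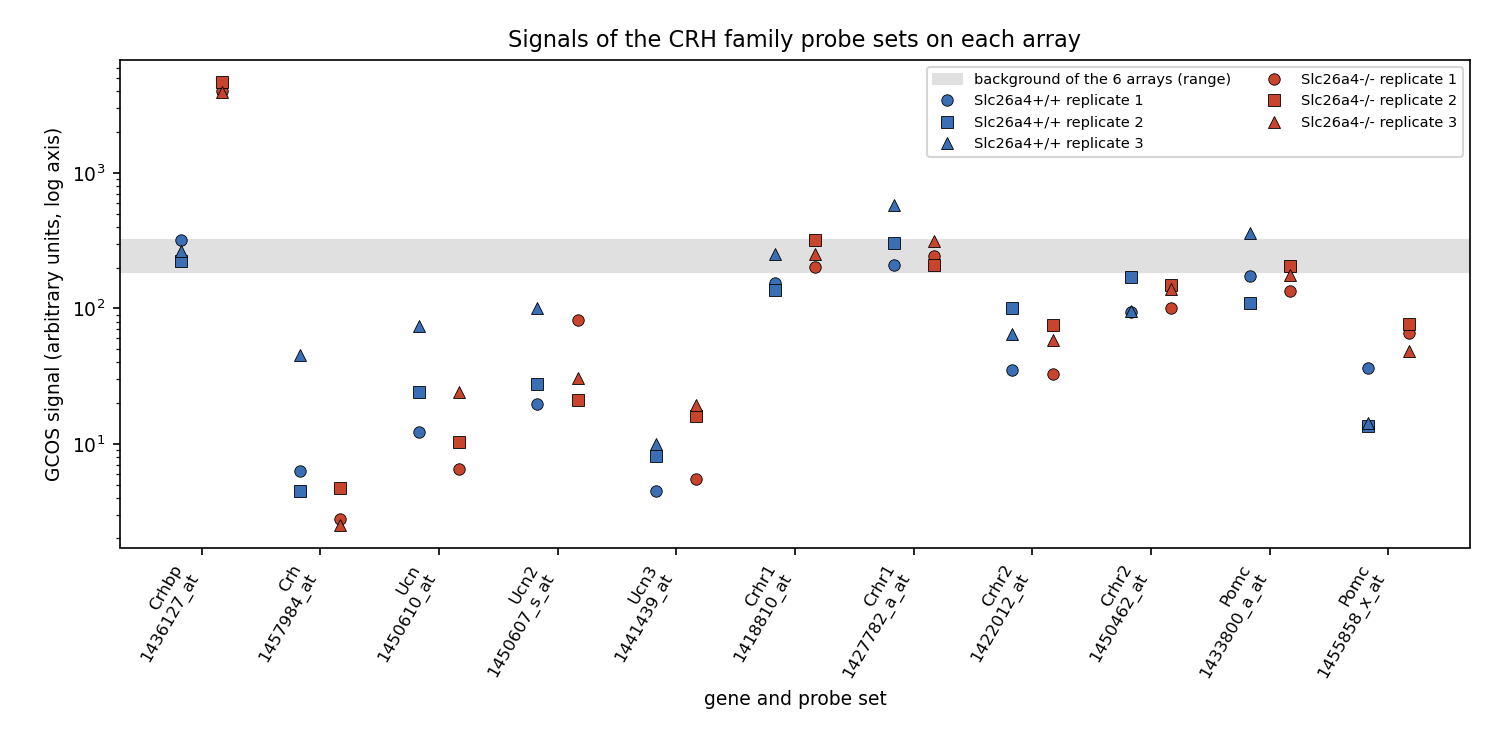
GCOS signal (log axis) of each CRH family probe set on each of the 6 arrays, with Slc26a4+/+ in blue, Slc26a4-/- in red, marker shapes for the replicate number and a grey band for the range of the array backgrounds (187 to 319). Crhbp lies at 222.7 to 317.6 in Slc26a4+/+ and at 3939.9 to 4685 in Slc26a4-/-, and heights are not comparable between probe sets.

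No ligand of the family gave a signal above the background in either genotype. All 4 ligand probe sets were below it on all 6 arrays, so their fold changes rest on signals that cannot be told from those of genes not expressed in the tissue, and no level is drawn from them. In bulk tissue, fewer cells of a type and less RNA per cell cannot be told apart either. Crh, which encodes the hormone itself, gave 6.3, 4.5 and 45 on arrays of Slc26a4+/+ mice against 2.8, 4.7 and 2.5 on those of Slc26a4-/- mice. The groups overlapped, and Slc26a4+/+ replicate 3 stood above the other 5 arrays. On the log2 scale the fold change was -1.76 with a standard error of 0.89 and a 95% interval from -3.74 to 0.23 (adjusted p = 0.492, limma), and it was -0.73 without Slc26a4+/+ replicate 3.

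Ucn, which encodes urocortin, gave 12.2, 24.3 and 74.3 in Slc26a4+/+ against 6.5, 10.4 and 24 in Slc26a4-/-. The same array, Slc26a4+/+ replicate 3, was again the highest, and the groups overlapped. Its log2 fold change was -1.25, with a 95% interval from -3.11 to 0.60 (adjusted p = 0.622, limma), and it was -0.55 without Slc26a4+/+ replicate 3. Ucn was lower in Slc26a4-/- in each of the 3 pairs of same-numbered arrays, though whether the numbers pair the arrays is unclear.

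Ucn2, a ligand that favours Crhr2, is read by a probe set whose probes are shared with transcripts of other genes. It gave 19.7, 27.7 and 99.9 in Slc26a4+/+ against 82.2, 20.9 and 30.4 in Slc26a4-/-, with 1 high array in each genotype. Here the log2 fold change was -0.02, with a 95% interval from -1.77 to 1.73 (adjusted p = 0.995, limma), and its sign turned under several settings. Ucn3 encodes a ligand of Crhr2 that Crhbp does not bind. It gave 4.5, 8.1 and 10 in Slc26a4+/+ against 5.5, 16.1 and 19.4 in Slc26a4-/-, and its groups overlapped. Its log2 fold change was 0.75, with a 95% interval from -0.86 to 2.35 (adjusted p = 0.758, limma).

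Of the receptors, Crhr1 gave signals near the background, above it on all arrays with 1 probe set, and Crhr2 did not pass it. Crhr1 was read by 2 probe sets. The first, 1427782_a_at, which reads several transcripts of the gene, was above the background on all 6 arrays, at 208.8, 304 and 583.2 in Slc26a4+/+ against 242.1, 210.8 and 312.9 in Slc26a4-/-. These signals were 1.035 to 1.827 times the background of their own arrays. The groups overlapped, and Slc26a4+/+ replicate 3 was the highest array. For this probe set the log2 fold change was -0.40, with a 95% interval from -1.21 to 0.40 (adjusted p = 0.731, limma), and it was -0.0007 without Slc26a4+/+ replicate 3.

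The other Crhr1 probe set, 1418810_at, gave 154.9, 136.7 and 251 in Slc26a4+/+, below the background on each array, and 203.2, 319.5 and 252.7 in Slc26a4-/-, above it on each array. The signals themselves overlapped, since Slc26a4+/+ replicate 3 was above Slc26a4-/- replicate 1. The log2 fold change was 0.54, with a 95% interval from -0.17 to 1.25 (adjusted p = 0.565, limma). The Crhr1 probe sets thus differed in sign, and neither difference passed the test.

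Crhr2 was below the background on all 6 arrays with both of its probe sets. The probe set 1422012_at gave 35.3, 100.5 and 65.1 in Slc26a4+/+ against 32.6, 75.9 and 58.2 in Slc26a4-/-, a log2 fold change of -0.23 with a 95% interval from -1.52 to 1.07 (adjusted p = 0.92, limma). In both genotypes replicate 2 was the highest and replicate 1 the lowest. The probe set 1450462_at gave 93.7, 171.4 and 95.6 in Slc26a4+/+ against 101.1, 147.9 and 138.1 in Slc26a4-/-. The groups overlapped, and the log2 fold change was 0.14, with a 95% interval from -0.71 to 1.00 (adjusted p = 0.925, limma).

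Pomc, the precursor of ACTH and of the melanocortins that act on pigment cells, was read by 2 probe sets. With 1433800_a_at it gave 172.5, 108.7 and 357.8 in Slc26a4+/+ against 135.5, 205.3 and 175.7 in Slc26a4-/-, above the background on 1 array of each genotype. The groups overlapped, and the log2 fold change was -0.15, with a 95% interval from -1.11 to 0.80 (adjusted p = 0.929, limma). The other Pomc probe set, 1455858_x_at, has probes that can hybridise with other transcripts, and it was below the background on all 6 arrays. It gave 36.2, 13.5 and 14.3 in Slc26a4+/+ against 65.8, 77.1 and 48.8 in Slc26a4-/-, so that the groups did not overlap. A log2 fold change of 1.72 was found, with a 95% interval from 0.35 to 3.08. It did not pass the test over all probe sets (adjusted p = 0.28, limma). With array weights it did (adjusted p = 0.0304, against 0.28 with equal weights), and both groups remain under the background there. Array weights raised the calls throughout, to 2372 probe sets higher and 1712 lower, from 535 and 243 with equal weights.

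Over the 10 probe sets of the 7 genes other than Crhbp, 0 passed an adjusted p of 0.05 by limma and 1 had an unadjusted p under 0.05. Over all 45037 probe sets 778 passed in either direction, 1.73% of those tested, and 11.9% had an unadjusted p under 0.05. Fold changes were positive for 4 and negative for 6 of the 10, with a median log2 fold change of -0.09 beside -0.06 over all probe sets. For 1 of the 10, the Pomc probe set just described, all Slc26a4-/- arrays were above all Slc26a4+/+ arrays, as for 8.46% of all probe sets, and for 0 they were all below, as for 9.40% of all. Of the 10 probe sets, 7 were below the background on all 6 arrays and 2 passed it on at least 2 arrays of a genotype. Slc26a4+/+ replicate 3, the array with the highest background and the highest Gapdh ratio, was the highest array for Crh, Ucn, Ucn2, Crhr1 1427782_a_at and Pomc 1433800_a_at. The part of RNA quality and background in these values was not tested. The intervals of the ligands span more than a doubling in at least one direction, so changes of that size are not excluded. Crh had a log2 fold change of -1.76 and was not called, so changes larger than a doubling can also go undetected here.

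**Figure D2:**
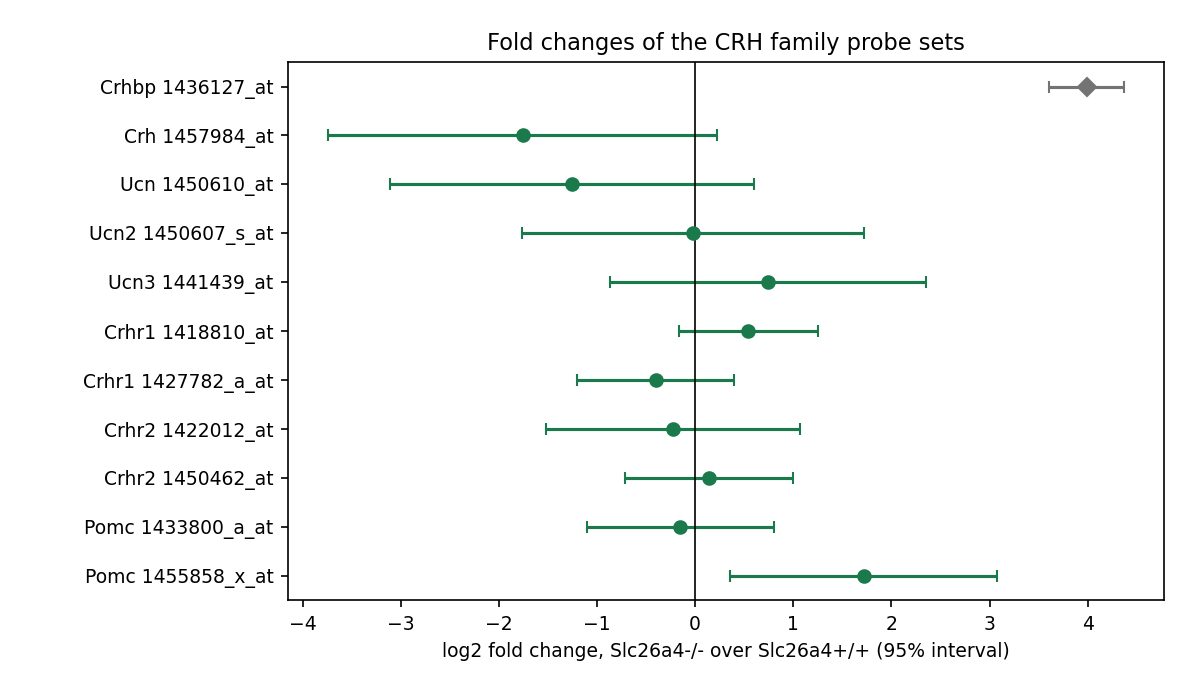
Log2 fold change of each CRH family probe set, Slc26a4-/- over Slc26a4+/+, with its 95% interval from limma over 3 arrays per genotype. Crhbp (grey diamond, 3.99) was chosen for this value, and the intervals of the other probe sets (green) hold 0, except Pomc 1455858_x_at, from 0.35 to 3.08.

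The genes whose pattern over the 6 arrays was most like that of Crhbp were found by the root mean square difference between centred log2 signals, among 10420 genes above the background in Slc26a4-/-. They were Lyz2, a lysozyme of macrophages, at 0.20, Chad, the cartilage matrix protein chondroadherin, at 0.25, Clca3a2 at 0.31, Ecrg4, which encodes a secreted peptide precursor, at 0.32, and Ms4a6d, at 0.33. Lyz2 gave 572.3, 481.7 and 495.2 in Slc26a4+/+ against 10473.1, 9717.8 and 10180 in Slc26a4-/-. Chad gave 104.3, 55.3 and 61.7 against 844, 948.3 and 795.6, and was below the background on every Slc26a4+/+ array, which makes it at least 3.33-fold higher. Such bounds set the mean of the bright group against the background of the dim one. On the same terms Clca3a2 was at least 5.57-fold and Ms4a6d at least 3.03-fold higher. Ecrg4 gave 294.3, 297.2 and 337.3 against 2916.5, 3799.1 and 3827.4. Because the likeness uses the contrast that selected Crhbp, and candidates were kept by their Slc26a4-/- signal, these genes are named as a description with no test. For Chad, Clca3a2 and Ms4a6d it also rests on Slc26a4+/+ signals below the background, so their order is not firm.

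**Figure D3:**
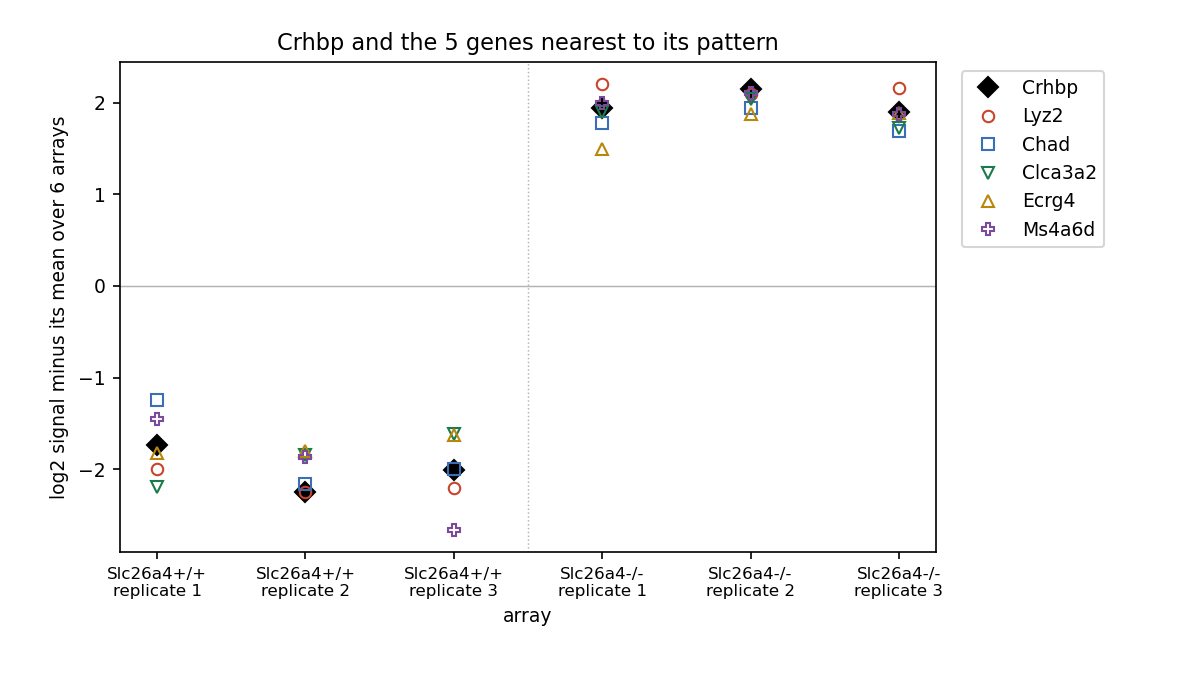
Log2 signal minus its mean over the 6 arrays, for Crhbp (black diamonds) and the 5 genes nearest to its pattern, by array. All 6 genes lie below 0 on the Slc26a4+/+ arrays and above 0 on the Slc26a4-/- arrays.

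Lyz2 and Chad also belong to marker lists of other cell types. Over all 18193 genes, each on its brightest probe set, 1.88% were called higher and 0.803% lower. Of 9 macrophage markers 7 were called higher in Slc26a4-/-, and their summed signal was between 5547 and 7741 on Slc26a4+/+ arrays and between 32040 and 33770 on Slc26a4-/- arrays. Of 9 markers of spiral ligament fibrocytes, bone and cartilage, 4 were called higher (Otos, Dcn, Ucma and Chad), with summed signals of 6889 to 10170 against 12470 to 14210. The other 5 did not pass, with log2 fold changes of 0.52 for Otor, 0.31 for Col2a1, 0.17 for Coch, -0.59 for Col1a1 and -0.75 for Pou3f4. Of 8 intermediate cell markers 2 were called higher, Tyrp1 (at least 5.70-fold) and Pmel (log2 fold change 1.64), with summed signals of 50340 to 62270 against 57910 to 58750. The others did not pass, with log2 fold changes of 0.50 for Tyr, 0.38 for Mlana, 0.01 for Kcnj13, -0.01 for Kcnj10, -0.22 for Dct and -0.24 for Sox10. Of 7 marginal cell markers 2 were called lower, Kcne1 and Atp13a5, with summed signals of 52730 to 70040 against 39330 to 41350. The log2 fold changes of all 7 were negative, from -1.27 to -0.40. On the Slc26a4+/+ arrays, the macrophage markers Cd68 and Aif1 passed the background on 0 of 3 and Ptprc on 1 of 3. The other macrophage markers passed it on all 3. The part of these cell types in the rise of Crhbp was not tested.

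None of the measured genes around Crhbp on chromosome 13 was called. Of the 3 genes on each side, Pde8b, Zbed3, Aggf1 and F2r were measured, with log2 fold changes of 0.44, 0.07, -0.22 and -0.19, respectively, and limma adjusted p-values of 0.625, 0.947, 0.739 and 0.69. These genes were looked at after the values of Crhbp were known.

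The genes that carry the signal of the CRH receptors were mostly above the background, 23 of the 26 measured. Of these 26 genes for G proteins, adenylyl cyclases, protein kinase A, CREB family factors, arrestins, receptor kinases and cyclic AMP phosphodiesterases, 1 was called higher and 0 lower by limma, beside the shares over all genes given for the marker lists. The gene called was Adcy7, an adenylyl cyclase abundant in blood cells, with 185.3, 200.3 and 212.2 in Slc26a4+/+ against 671.6, 648.8 and 702.8 in Slc26a4-/-. The groups were far apart, and since Adcy7 was below the background on every Slc26a4+/+ array it was at least 2.61-fold higher (log2 fold change 1.76, adjusted p = 0.0016, limma). Macrophage markers were higher in the same arrays, and their part in this value was not tested. The call was lost where all probe sets of Adcy7 were averaged. The median log2 fold change of the list was 0.02, beside -0.03 over all genes.

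Among 14 measured genes of POMC processing and melanocortin signalling, 1 was called higher and 0 lower, beside 1.88% and 0.803% of all genes. The median log2 fold change of the list was -0.34, beside -0.03 over all genes. The gene called was Cpe, carboxypeptidase E, which trims basic residues from peptide hormone precursors after they are cut. Cpe gave 777.9, 445.3 and 249.7 in Slc26a4+/+ against 8689.1, 7929.0 and 9097.3 in Slc26a4-/-, with no overlap (log2 fold change 4.27, standard error 0.33, adjusted p = 0.000231, limma). Cpe passed the background on 2 of the 3 Slc26a4+/+ arrays. These values are from the brighter of the 2 Cpe probe sets, and the other was not called. Pcsk1, the convertase that releases ACTH, and Mc2r, the ACTH receptor, are named for their roles with their values known. Both were below the background on all 6 arrays, with mean signals of 93.9 and 83.9 for Pcsk1 and of 216 and 155.6 for Mc2r in Slc26a4+/+ and Slc26a4-/-.

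Among 13 genes of the glucocorticoid receptor, glucocorticoid metabolism and common glucocorticoid targets, 1 was called higher and 0 lower, beside 1.88% and 0.803% of all genes. The median log2 fold change of the list was -0.25, beside -0.03 over all genes. The gene called was Hsd11b1, the enzyme that regenerates active glucocorticoid inside cells. It gave 266.7, 222.1 and 156.3 in Slc26a4+/+ against 616.4, 618.4 and 557.4 in Slc26a4-/-. The log2 fold change was 1.51 (adjusted p = 0.0124, limma), against a Slc26a4+/+ group that passed the background on 1 of 3 arrays. Without Slc26a4-/- replicate 1, 2 or 3 it was 1.48, 1.48 and 1.56, with adjusted p-values of 0.0872, 0.0852 and 0.0774, and the call was lost each time. With 1 of these arrays left out, 165 to 198 probe sets were called higher in place of 535. With the replicate number as a block 2 genes were called, Hsd11b1 and Zbtb16, a glucocorticoid-induced transcription factor that was lower (log2 fold change -0.91, adjusted p = 0.0402 with the block and 0.27 without it, limma). The receptor itself, Nr3c1, named for its role, had mean signals of 1200 ± 523 and 1401 ± 153 (SD, n = 3 each, log2 fold change 0.30, adjusted p = 0.724, limma).

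The further steps of the axis and its classical hormones gave no call. Of 9 genes of adrenal steroid synthesis, 12 other class B1 peptide hormone receptors and 11 hypothalamic and pituitary hormones, 0 were called by limma, and 0 had an unadjusted p under 0.05, as 14.9% of all genes had. Their median log2 fold changes were -0.03, -0.09 and -0.34. Above the background were 4 of the 9, 1 of the 12 and 1 of the 11.

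Of 21 genes for secreted proteins that bind other ligands outside the cell, as Crhbp does, 2 were called higher, 3 lower and 16 did not pass. Over all genes 1.88% were called higher and 0.803% lower. The median log2 fold change of the list was -0.01, beside -0.03 over all genes. Igfbp2, a binding protein of insulin-like growth factors, gave 489.0, 376.2 and 516.0 in Slc26a4+/+ against 1035.2, 1143.4 and 1288.6 in Slc26a4-/- (log2 fold change 1.34, adjusted p = 0.00606, limma). Igfbp5, of the same family, went the other way, from 6017.6, 5248.6 and 6785.8 to 2806.3, 2708.5 and 3377.4 (log2 fold change -1.02, adjusted p = 0.00936, limma). Ltbp2, a matrix protein of the family that binds latent TGF-beta, gave 612.5, 579.6 and 589.2 against 204.1, 189.5 and 172.9 (log2 fold change -1.66, adjusted p = 0.00285, limma), and passed the background on 1 of the 3 Slc26a4-/- arrays. The groups did not overlap in these 3 genes, which were named for their small p. Over all probe sets, all Slc26a4-/- arrays were above all Slc26a4+/+ arrays in 8.46% and below them in 9.40%.

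The remaining calls, Igfbp7 and the activin-binding protein Fstl3, were named after their values were seen. Igfbp7 was higher (log2 fold change 1.21, adjusted p = 0.0259, limma). Of its 3 probe sets, as of the 2 of Igfbp5, only the brightest was called. Fstl3 was below the background on all Slc26a4-/- arrays and at least 1.73-fold lower there (log2 fold change -1.76, adjusted p = 0.0377, limma). Several of these calls were lost when 1 array was left out, with log2 fold changes of 1.25 for Igfbp2, -0.98 and -0.96 for Igfbp5, 0.99 to 1.32 for Igfbp7 and -1.44 to -1.77 for Fstl3 in those fits. Igfbp2 had an adjusted p of 0.0586 without Slc26a4-/- replicate 3, and Igfbp5 of 0.0725 and 0.0759 without Slc26a4-/- replicate 1 or 2. Igfbp7 lost its call without Slc26a4+/+ replicate 3 (0.0596) or without Slc26a4-/- replicate 1 (0.0705), 2 (0.108) or 3 (0.0774). Fstl3 lost it without Slc26a4+/+ replicate 2 (0.156) or 3 (0.0822) and without Slc26a4-/- replicate 1 (0.123) or 3 (0.148). Ltbp2 passed the test with each array left out in turn. With the Xist signal as a covariate, 0 genes of the 7 lists were called, and 27 probe sets in all. The log2 fold changes under that covariate were 4.52 for Cpe (adjusted p = 0.087), 1.71 for Adcy7 (0.229), 1.51 for Hsd11b1 (0.453) and -1.59 for Ltbp2 (0.297), limma. Xist signals did not overlap between the genotypes, so this fit cannot separate sex from genotype. Nothing is drawn from the calls lost in it.

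**Figure D4:**
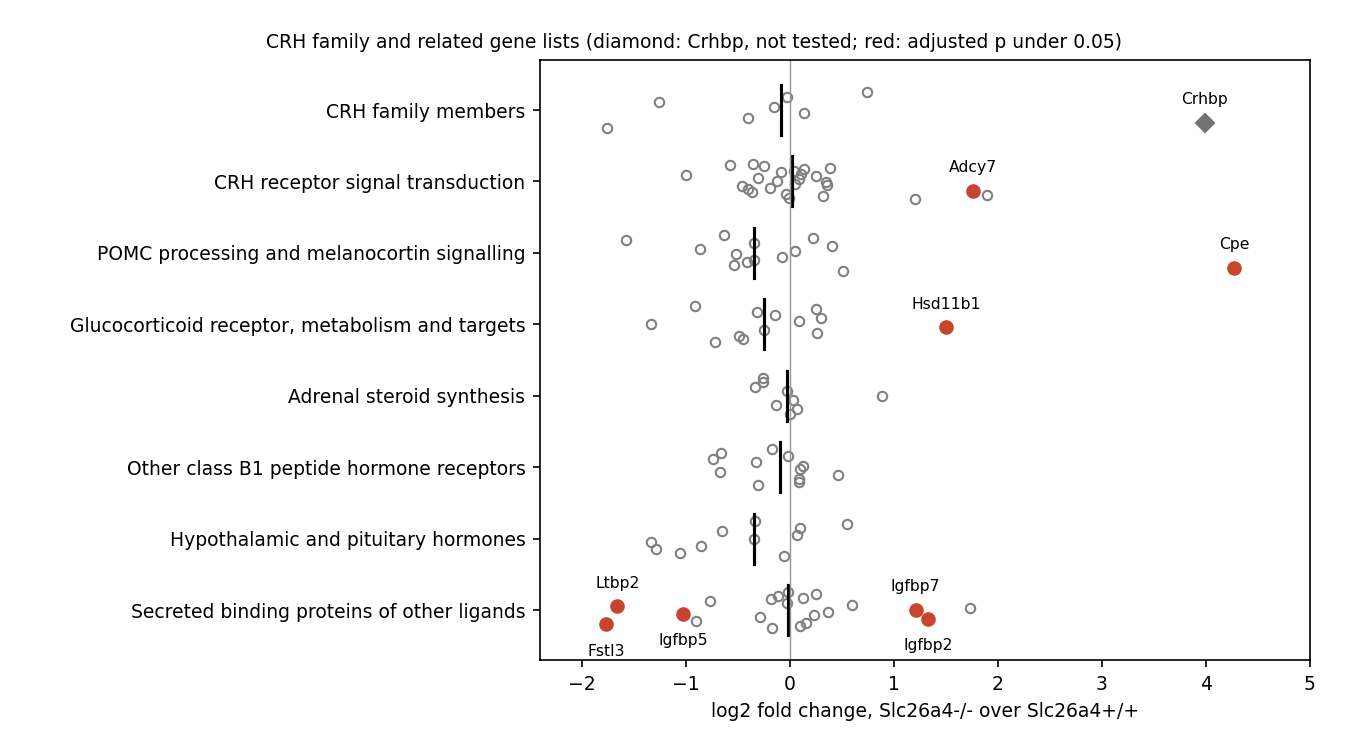
Log2 fold change, Slc26a4-/- over Slc26a4+/+, of each measured gene of the CRH family and of 7 related lists, each gene on its brightest probe set, with black bars for list medians. Red points passed an adjusted p of 0.05 by limma (Cpe at 4.27, Adcy7 at 1.76, Hsd11b1 at 1.51 and 5 secreted binding proteins), and the grey diamond is Crhbp, at 3.99, which was not tested.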

How the data were processed

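The deposited values are GCOS signals, a linear signal intensity per probe set that the authors computed with Affymetrix GCOS, with a version and a scaling target not given in the sources used. Array means ranged from 665.8 to 725.3. Signals under 1 (172 values) were set to 1, log2 was taken with no further normalization, and 64 control probe sets were left out. The genotypes were compared by limma 3.58.1 in R 4.3.3 (lmFit, eBayes with trend) over 45037 probe sets, two-sided, with Benjamini-Hochberg adjustment and a threshold of 0.05. The number of arrays, 3 per genotype, limits the precision. Symbols came from the platform annotation, where 34945 probe sets have 1 symbol, 932 several and 9160 none, and 0 were changed when matched by gene number to GRCm38.p6. A gene of a list was read on the probe set whose mean log2 signal was the highest. Named were all family members, up to 3 called genes a list with the smallest p, and the 5 genes most like Crhbp. The members and lists were chosen with earlier results of these data known. Alternatives were other scalings, pseudocounts, filters, weights, a replicate block, Xist as a covariate, another test and leaving out each array. The fit was tested on simulated data.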

Additional observations from a re-analysis of the deposited data

How the results depend on the processing

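The log2 fold change of Crhbp stayed between 3.70 (pseudocount 64) and 4.43 (Xist signal as a covariate) over 18 alternatives, and between 3.86 and 4.12 with 1 array left out. Among the 18, the signal filter, the fit without the trend, the replicate block and the paired t-tests cannot change a fold change by their design. Because Xist signals did not overlap between the genotypes, the fit with that covariate cannot separate sex from genotype. The 10 other probe sets of the family gave 0 calls in all settings but 2, which gave 1 each: array weights (Pomc 1455858_x_at, 2.02) and the unadjusted paired t-test, which the methods describe for qRT-PCR (Ucn). Probe sets called, 535 higher and 243 lower, became 359 and 89 with median centring, 93 and 21 without the trend, 2372 and 1712 with array weights, 27 and 0 with the Xist covariate, 1782 and 2198 by the unadjusted paired test and 0 and 0 after its adjustment, and 165 to 1048 and 54 to 666 with 1 array left out.

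The counts of genes called changed as follows, and the cause was not tested. Receptor transduction, with 1 call, gave 6 with array weights, 5 by the unadjusted paired test, 0 with the Xist covariate, the adjusted paired test or averaged probe sets, and 1 to 2 with 1 array left out. POMC processing, with 1 call, gave 4 with array weights, 3 by the unadjusted and 0 by the adjusted paired test, 0 with the Xist covariate, and 1 to 2 with 1 array left out. The glucocorticoid list, with 1 call, gave 0 with median centring, without the trend, with the Xist covariate and by the adjusted paired test, 2 with array weights, the replicate block and the unadjusted paired test, and 0 to 2 with 1 array left out. The secreted binding proteins, with 5 calls, gave 3 with median centring and with averaged probe sets, 1 without the trend, 0 with the Xist covariate and by the adjusted paired test, and 2 to 6 with 1 array left out. The hormones gave 1 call by the unadjusted paired test.

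Signs turned only in probe sets without a call. Ucn2 1450607_s_at was at 0.0596 with median centring, 0.0456 with quantile normalization, 0.21 with array weights, 0.29 with the Xist covariate, and -0.59 to 0.68 with 1 array left out. Crhr2 1450462_at was at -0.23 with array weights, -0.74 with the Xist covariate and -0.0075 to 0.43 with 1 array left out, and Crhr2 1422012_at at -0.63 to 0.13 with 1 array left out. Pomc 1433800_a_at was at 0.45 with array weights, 0.90 with the Xist covariate and -0.55 to 0.31 with 1 array left out.

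Whether replicate numbers pair the arrays depends on the probe sets used. Same-numbered arrays deviated together with correlations of 0.278, 0.215 and 0.142 over probe sets with a mean signal of at least 300, and of 0.094, 0.027 and 0.029 over all, the latter computed after the former was seen. Differently numbered arrays gave -0.258 to 0.12 and -0.096 to 0.07, respectively. The highest of these, Slc26a4+/+ replicate 3 with Slc26a4-/- replicate 2, was above 0.027 and 0.029 over all probe sets. The replicate block cannot change a fold change in this balanced design, so Crhbp was at 3.99 with it as without it. With the block, other members had 0 calls and all probe sets 588 higher and 244 lower calls. Signals below the background limit what can be said of the ligands, of Crhr2 and of Pomc.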
